A study of Homo sapiens with 8 samples.

Results

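Integrins and laminins are the 2 sides of the contact between an epithelial cell and its basement membrane, and their subunit genes are described here in HSC39 cells given small interfering RNA (siRNA) that targets TRIM44. The genes were chosen by name, with earlier results of these data known. The list held 36 genes, 25 for integrin subunits and 11 for laminin subunits, and a gene entered where a probe set carried its symbol and no other. That gave 34 genes with 1 probe set each, among 19158 probe sets of 18404 genes. ITGA1 had only a probe set that also carries another symbol, and LAMA3 is not analysed here.

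HSC39 is a gastric cancer cell line of signet ring type, grown in RPMI with 10% fetal calf serum. The arrays fall into 3 groups, with 2 arrays of TRIM44 siRNA 7, 2 arrays of TRIM44 siRNA 9 and 4 arrays of the AllStars negative siRNA. The labels give a dose of 100 nM (written nm) and 48 h, in a protocol text that names TRIM44 siRNA for every sample; no dose of the negative siRNA is named apart from it. The design text speaks of untreated cells and of 4 biological replicates in each condition, which joins both TRIM44 reagents, and the sample labels name the negative siRNA and each reagent. The labels do not describe separate cultures, so the p-values cover only the variation among these arrays, part of which may be technical.

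An integrin is a pair of an alpha and a beta subunit that spans the membrane, binds matrix outside and is tied to actin or keratin inside. A laminin is a cross-shaped trimer of an alpha, a beta and a gamma chain that polymerises into the sheet on which epithelia rest. In stomach and gut epithelium the laminin receptors alpha 3 beta 1 and alpha 6 beta 4 hold the cells to that sheet, while alpha 5 beta 1, the classical fibronectin receptor, is usually associated with migrating or regenerating cells. Since most alpha subunits share the beta 1 chain, the alpha genes largely set which ligands a cell can bind.

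All values are log2 levels, on which a difference of 1 is a doubling. Array medians over the named probe sets lay between 7.50 and 7.58, and pairs of arrays correlated at 0.991 to 0.997. TRIM44 stood at 10.85 and 11.27 with siRNA 7, at 11.10 and 11.14 with siRNA 9, and between 11.77 and 12.02 with negative siRNA (limma, both reagents against negative siRNA, difference -0.81, SE 0.10, adjusted p = 0.0449). All 4 TRIM44 siRNA arrays lay below all negative arrays, and the difference was -0.87 to -0.73 with single arrays dropped. The adjusted p then stayed under 0.05 only without siRNA 7 array 2 (0.0306) and was 0.0587 to 0.291 without any other array, 0.0804 after median centring, 0.442 with all probe sets and 0.108 with the reagent as a random block. On the first principal component of the named probe sets (32.5% of the variance) siRNA 9 had scores of 15.5 and 17.2, negative array 2 scored 13.6 and the other 5 arrays scored -11.8 to -5.57. The ITGA5, LAMA2 and ITGA9 results are therefore also given without negative array 2. Leaving it out raised the share of all probe sets called from 0.924% to 5.57% for siRNA 9 against negative siRNA. Between the reagents the share rose from 2.23% to 5.48%. The array was picked for lying near the siRNA 9 arrays on the first component, so a call made only without it is no separate support. On the second component it lay apart from them, at 14.8 against -12 and -5.88. There siRNA 7 array 2 scored 16.7, and the other arrays scored -12.5 to 2.95. Of the epithelial markers looked up, 12 of 14 were measured, with gene means of 8.44 to 13.05. For leukocyte and platelet markers 15 of 18 were measured, with gene means of 4.23 to 7.66, and for fibroblast and endothelial markers 15 of 15, at 4.38 to 9.77. The files give no background call, so a low value cannot be told from absence, and levels of different genes are not compared.

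**Figure D1:**
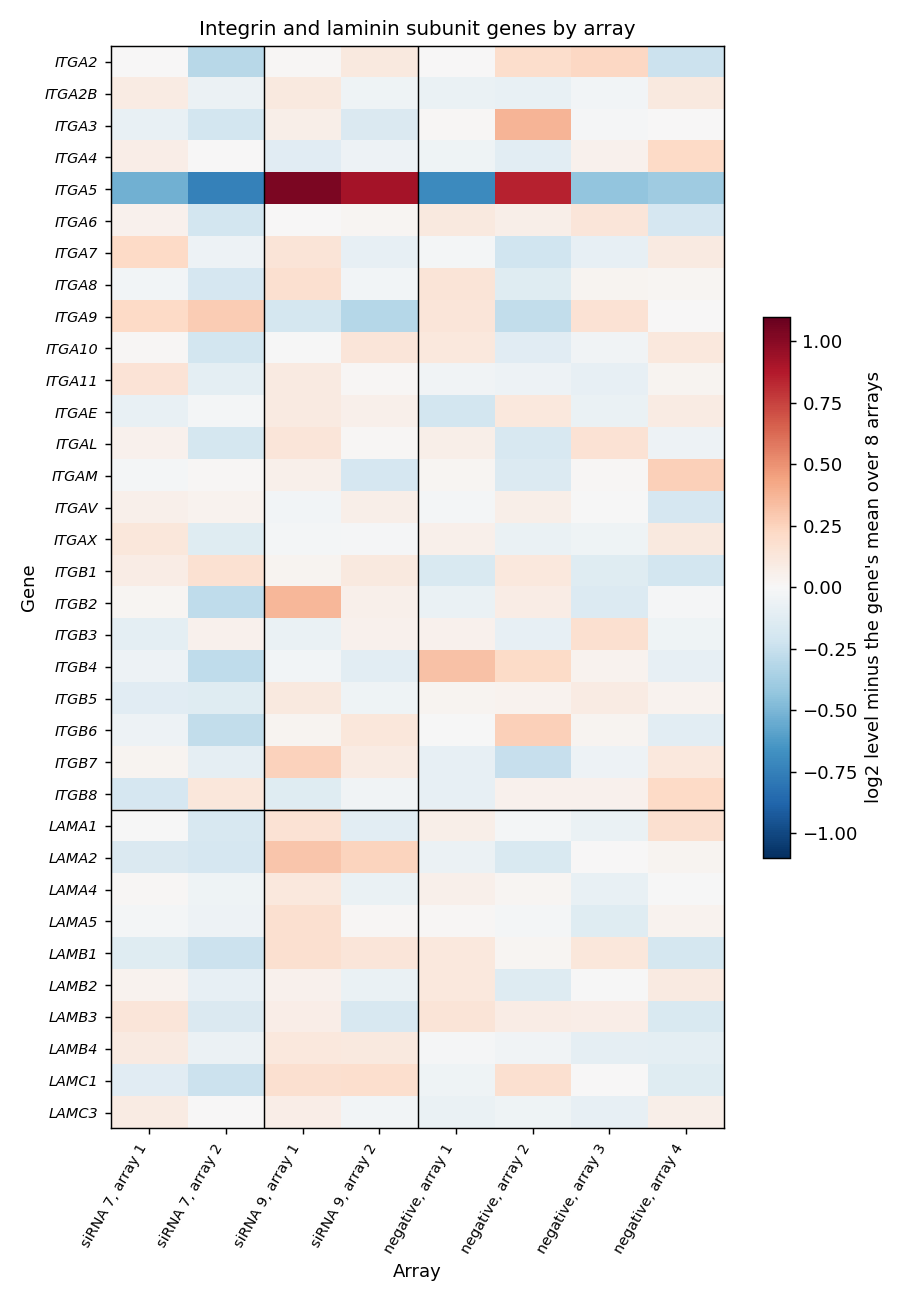
Heat map of the 34 integrin and laminin subunit genes (rows, integrins above the line) on the 8 arrays (columns); colour is the log2 level minus the gene's mean over the 8 arrays. ITGA5 is the row with the widest spread, high on both siRNA 9 arrays and on negative array 2, and it spans 1.77 against a median range of 0.35 over the 34 genes.

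With both TRIM44 reagents taken as 1 condition, no integrin or laminin subunit gene passed the threshold of an adjusted p under 0.05. In this limma fit 0 of 34 were called, against 0.00522% of all probe sets, and 2 of 34 had an unadjusted p under 0.05, against 5.43% of all. Those 2 were ITGB1, the common beta chain, and ITGB4, the beta chain of the hemidesmosome. For no subunit gene did the 4 TRIM44 siRNA arrays lie wholly above or wholly below the 4 negative arrays, which was the case for 2.86% of all probe sets. The median difference was -0.02 over the 34 genes and 0.01 over all probe sets, with 15 genes above 0 and 19 below, or 55.9% below, against 46.3% of all. In bulk RNA, fewer cells that express a gene and less RNA per cell cannot be told apart.

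ITGB1 had log2 levels of 9.88 and 9.97 with siRNA 7 and 9.83 and 9.91 with siRNA 9, against 9.63, 9.92, 9.67 and 9.60 on negative arrays 1 to 4. Only negative array 2 reached the range of the TRIM44 siRNA arrays. The difference was 0.19 (SE 0.09, unadjusted p = 0.0467, limma adjusted p = 0.912 over 19158 probe sets), with 0.22 for siRNA 7 and 0.17 for siRNA 9. Both reagents thus had the same sign, and neither value passed (adjusted p = 0.708 and 0.564).

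ITGB4 pairs with alpha 6 alone and anchors laminin to keratin filaments. It stood at 9.38 and 9.16 with siRNA 7 and 9.41 and 9.32 with siRNA 9, against 9.76, 9.65, 9.48 and 9.35 with negative siRNA. The groups overlapped at negative array 4, which lay below 2 of the TRIM44 siRNA arrays. The difference was -0.24 (95% interval -0.46 to -0.02, adjusted p = 0.903), with -0.29 for siRNA 7 and -0.19 for siRNA 9. Its partner ITGA6 had -0.06 (SE 0.09), and every TRIM44 siRNA array was within the range of the negative arrays except siRNA 7 array 2, at 10.45 against a lowest negative value of 10.47.

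ITGA3, the alpha chain of the other epithelial laminin receptor, stood at 7.70 and 7.58 with siRNA 7 and 7.84 and 7.62 with siRNA 9, against 7.79, 8.15, 7.77 and 7.78 with negative siRNA. Negative array 2 lay above the other 7 arrays. The difference was -0.19 (SE 0.10, adjusted p = 0.961), and -0.09 without negative array 2 (adjusted p = 0.783). Among the genes of smallest unadjusted p, LAMB4, a laminin beta chain, had 0.12, ITGB7, a beta chain of lymphocyte integrins, had 0.14, and ITGB5, which pairs with alpha V, had -0.10 (adjusted p = 0.975 to 1). The other epithelial subunits had differences of -0.09 for ITGA2, 0.07 for ITGAV, -0.09 for ITGB6, -0.06 for LAMB3, 0.06 for LAMA5, -0.03 for LAMB1, 0.00 for LAMC1 and -0.07 for LAMA1. Each of their 95% intervals held 0, the widest being -0.35 to 0.16 for ITGA2.

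More subunit genes had an unadjusted p under 0.05 between the reagents than for both reagents together, 6 against 2 of 34. The same held for all probe sets, at 15.7% against 5.43%, so it was not particular to the subunit genes. These comparisons differ in arrays per group, so their shares without overlap cannot be set side by side. In siRNA 7 against siRNA 9, ITGA5 was lower with siRNA 7, and LAMA2, ITGA9, LAMC1 and LAMB1 came next in order of unadjusted p without passing. With limma 1 of 34 subunit genes was called, or 2.94%, against 2.23% of all probe sets. At an unadjusted p under 0.05 there were 6 of 34, or 17.6%, against 15.7% of all. The 2 siRNA 7 arrays lay wholly apart from the 2 siRNA 9 arrays for 14 of 34 genes, or 41.2%, against 48.6% of all probe sets. For 12 genes siRNA 7 was the lower one, or 35.3% against 28.7% of all, and for 2 it was the higher one, or 5.88% against 19.9% of all. The shares called, of small unadjusted p and without overlap lie near the background, while siRNA 7 was wholly higher less often among the 34 genes than among all probe sets, a difference that was not tested.

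ITGA5 encodes the alpha chain that binds the RGD sequence of fibronectin and pairs only with beta 1. On its probe set, 7963786, the log2 level was 8.64 and 8.43 on the siRNA 7 arrays and 10.21 and 10.09 on the siRNA 9 arrays. The negative arrays 1 to 4 had 8.47, 10.02, 8.74 and 8.78. Thus 5 arrays lay between 8.43 and 8.78 and 3 between 10.02 and 10.21, with nothing between, and the high arrays were those of siRNA 9 and negative array 2.

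The siRNA 7 arrays were lower than the siRNA 9 arrays by -1.61 (SE 0.37, 95% interval -2.41 to -0.81), a level 0.327 times as high (limma adjusted p = 0.0462 over 19158 probe sets). The call lies at the edge of the threshold. Leaving out single arrays left its size between -1.72 and -1.51. The adjusted p was 0.0425, 0.000259, 0.0629 and 0.0518 when negative array 1, 2, 3 or 4 was dropped. Without siRNA 7 array 1 or 2 it was 0.110 and 0.215, and without siRNA 9 array 1 or 2 it was 0.296 and 0.229. Each fit without a siRNA array leaves 1 array in that group, and fewer of all probe sets were then called. The adjusted p of ITGA5 was 0.0524 after median centring, 0.163 with all probe sets tested and 0.201 with a trended and robust prior. It was 0.0404 after quantile normalization, 0.0286 with the upper 50% of probe sets, 0.00497 with array weights and 0.000633 with only the arrays compared. In that order 2.84%, 7.34%, 5.55% and 4.21% of all probe sets tested were called. The SE was 0.37 with all arrays, 0.12 without negative array 2 and 0.11 with only the arrays compared. With all probe sets tested, 0.0248% of them were called between the reagents.

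Against negative siRNA, ITGA5 had 1.15 with siRNA 9 (95% interval 0.45 to 1.84, adjusted p = 0.126) and -0.47 with siRNA 7 (95% interval -1.16 to 0.23, adjusted p = 0.863). Both siRNA 9 values exceeded all 4 negative ones, with negative array 2 close below. Leaving out negative array 2, the negative array nearest to siRNA 9 here, raises the siRNA 9 difference by construction. With it left out 5.57% of all probe sets were called, against 0.924% with all arrays. Without negative array 2 the siRNA 9 difference was 1.49 (SE 0.11, adjusted p = 0.000232). It did not pass without any other array, with values of 0.97 to 1.20 and adjusted p of 0.142 to 0.624. Negative array 2 exceeded the mean of the other negative arrays by 1.36 for ITGA5, and only 26 of 19158 probe sets, or 0.136%, differed by more than 1 there in either direction. The next subunit genes in that respect were ITGA3, at 0.37, and ITGA9, at -0.37. Why negative array 2 had the ITGA5 level of the siRNA 9 arrays was not tested.

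**Figure D2:**
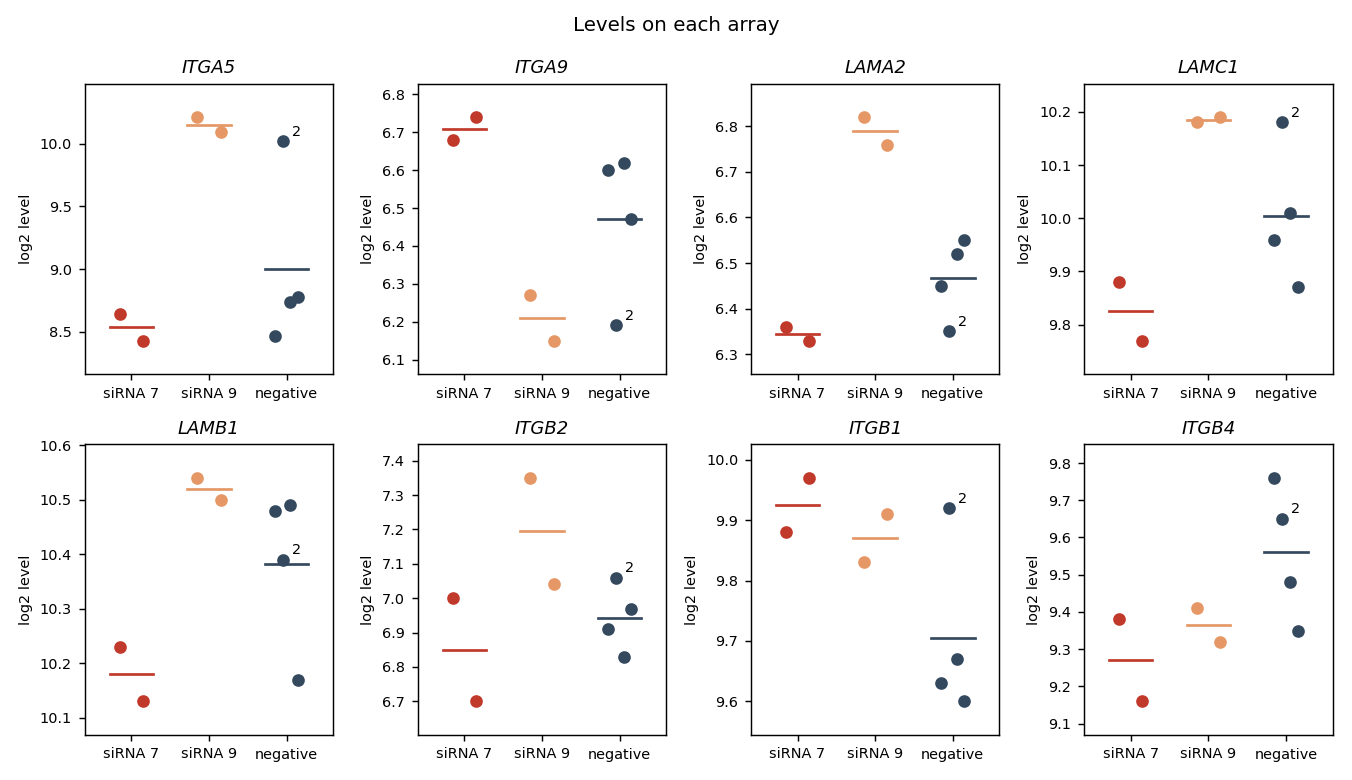
Log2 levels of 8 subunit genes on each array (points) with the group mean (line) for siRNA 7 (2 arrays), siRNA 9 (2 arrays) and negative siRNA (4 arrays, array 2 marked). Each panel has its own axis. For ITGA5 negative array 2, at 10.02, lies with the siRNA 9 arrays, at 10.21 and 10.09, while for LAMA2 it is, at 6.35, the lowest of the negative arrays.

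The start regions shown are that of ITGA5, the 1 gene called between the reagents, and for comparison those of the 3 laminin genes of smallest unadjusted p, LAMA2, LAMC1 and LAMB1, none of which passed. The sequences are from RefSeq (GRCh38.p14), run 5′ to 3′ on the gene's strand and hold 250 bases before and 50 after the annotated start. Capitals mark matches, on either strand and with overlaps allowed, to the GC box GGGCGG, the hypoxia element core ACGTG, the AP-1 element TGANTCA and the TATA box TATAAA. This set of motifs was chosen after the values were known. The regions are chr12:54419217-54419516 for ITGA5, chr6:128882888-128883187 for LAMA2, chr7:108003112-108003411 for LAMB1 and chr1:183023170-183023469 for LAMC1, with ITGA5 and LAMB1 on the minus strand and the other two on the plus strand.
ITGA5: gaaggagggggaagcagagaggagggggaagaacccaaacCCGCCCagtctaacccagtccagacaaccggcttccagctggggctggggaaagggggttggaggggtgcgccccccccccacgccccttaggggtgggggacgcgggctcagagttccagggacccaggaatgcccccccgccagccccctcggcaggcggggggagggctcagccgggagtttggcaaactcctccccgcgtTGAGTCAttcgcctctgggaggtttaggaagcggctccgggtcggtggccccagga
LAMA2: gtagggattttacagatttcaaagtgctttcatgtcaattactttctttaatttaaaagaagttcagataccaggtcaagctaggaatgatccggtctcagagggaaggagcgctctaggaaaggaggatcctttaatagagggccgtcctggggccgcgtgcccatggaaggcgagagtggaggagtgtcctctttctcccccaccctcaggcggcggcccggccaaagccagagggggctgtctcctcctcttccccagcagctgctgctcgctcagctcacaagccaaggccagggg
LAMB1: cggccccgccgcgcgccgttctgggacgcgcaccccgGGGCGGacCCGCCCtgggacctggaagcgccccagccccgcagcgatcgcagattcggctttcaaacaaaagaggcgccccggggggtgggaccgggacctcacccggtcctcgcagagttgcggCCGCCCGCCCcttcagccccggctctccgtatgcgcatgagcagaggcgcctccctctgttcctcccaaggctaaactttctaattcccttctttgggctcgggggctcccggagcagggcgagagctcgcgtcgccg
LAMC1: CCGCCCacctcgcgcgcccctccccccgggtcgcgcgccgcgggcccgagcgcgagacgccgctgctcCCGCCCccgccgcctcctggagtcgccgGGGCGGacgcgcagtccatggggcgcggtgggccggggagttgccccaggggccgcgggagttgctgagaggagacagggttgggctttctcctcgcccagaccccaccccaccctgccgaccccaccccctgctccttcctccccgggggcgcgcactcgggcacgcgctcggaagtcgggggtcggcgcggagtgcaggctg

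The ITGA5 window held 1 AP-1 element, TGAGTCA, whose first base lies 6 bases before the start, and 1 GC box, 210 bases before it. An AP-1 element was present in 7.71% of all 35116 promoter windows and a GC box in 45.0%. LAMB1 had 4 GC boxes, 2 of them overlapping, and LAMC1 had 3, while the LAMA2 window matched none of the 4 motifs. The GC content was 69.3% for ITGA5, 55.3% for LAMA2, 71.0% for LAMB1 and 79.0% for LAMC1, against a median of 58.7% over all windows. Windows were found for 24 of the 34 subunit genes, 31 in all. Of these, 18 held a GC box (58.1%), 3 an ACGTG core (9.68%), 2 an AP-1 element (6.45%) and 2 a TATA box (6.45%). Over all windows an ACGTG core was present in 21.4% and a TATA box in 11.5%. These matches describe letters only.

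LAMA2, the alpha chain of the laminin of muscle and nerve basement membranes, had log2 levels of 6.36 and 6.33 with siRNA 7 and 6.82 and 6.76 with siRNA 9, against 6.45, 6.35, 6.52 and 6.55 with negative siRNA. The siRNA 9 arrays were above all others, and negative array 2 was here the lowest negative array. The difference of siRNA 7 and siRNA 9 was -0.45 (SE 0.11, 95% interval -0.68 to -0.21, adjusted p = 0.0519), just outside the threshold. The adjusted p was 0.0193 without negative array 2 and 0.0184 to 0.332 over the alternatives. The siRNA 9 arrays differed from negative siRNA by 0.32 (adjusted p = 0.130), the siRNA 7 arrays by -0.12 (adjusted p = 0.884).

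LAMB1 and LAMC1 encode the beta 1 and gamma 1 chains that most laminins of epithelia share. LAMC1 stood at 9.88 and 9.77 with siRNA 7 and at 10.18 and 10.19 with siRNA 9, against 9.96, 10.18, 10.01 and 9.87 with negative siRNA. LAMB1 stood at 10.23 and 10.13 with siRNA 7 and at 10.54 and 10.50 with siRNA 9, against 10.48, 10.39, 10.49 and 10.17 with negative siRNA. For both genes the siRNA 7 arrays lay below the siRNA 9 arrays, and the negative arrays spread from the level of one reagent to that of the other. The difference of siRNA 7 and siRNA 9 was -0.37 for LAMC1 (SE 0.12, adjusted p = 0.137) and -0.34 for LAMB1 (SE 0.12, adjusted p = 0.184). LAMA5, which joins these chains in laminin-511, had -0.13 (SE 0.11, adjusted p = 0.621), with both siRNA 7 arrays below both siRNA 9 arrays.

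ITGA9, which binds tenascin and VCAM1 together with beta 1, ran the other way from ITGA5. Its level was 6.68 and 6.74 with siRNA 7 and 6.27 and 6.15 with siRNA 9, against 6.60, 6.19, 6.62 and 6.47 with negative siRNA. The 3 lowest arrays were again those of siRNA 9 and negative array 2. The difference of siRNA 7 and siRNA 9 was 0.50 (SE 0.14, 95% interval 0.19 to 0.81, adjusted p = 0.0913), and the adjusted p was 0.0153 without negative array 2 and 0.0153 to 0.417 over the alternatives. Set against negative siRNA, the value was 0.24 for siRNA 7 (adjusted p = 0.734) and -0.26 for siRNA 9 (adjusted p = 0.380). The siRNA 9 value was -0.35 without negative array 2 (adjusted p = 0.0479), and -0.32 to -0.20 without any other array (adjusted p = 0.398 to 0.843).

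ITGB2, the beta chain of leukocyte integrins, stood at 7.00 and 6.70 with siRNA 7 and 7.35 and 7.04 with siRNA 9, against 6.91, 7.06, 6.83 and 6.97 with negative siRNA. The difference of siRNA 7 and siRNA 9 was -0.34 (SE 0.14, adjusted p = 0.245). The mean over the 15 leukocyte and platelet markers was 5.74 and 5.65 with siRNA 7 and 5.78 and 5.77 with siRNA 9. On the negative arrays it was 5.61 to 5.90. Of these 15 markers 13 were below 0 between the reagents, with 0 called, against 56.7% of all probe sets. Their median was -0.07, against -0.03 over all, and their gene means were low, at 4.23 to 7.66. Their part in the ITGB2 value was not tested. Of the leukocyte alpha chains, ITGAE, ITGAL, ITGAM and ITGAX had differences between the reagents of -0.15 to 0.06, and none reached an adjusted p under 0.657.

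Between the reagents the other epithelial subunits gave smaller differences. ITGB6, the epithelial partner of alpha V that activates TGF-beta, had -0.24 (95% interval -0.53 to 0.05), ITGA2, the collagen receptor chain, had -0.21 (95% interval -0.56 to 0.13) and ITGB5 had -0.15 (95% interval -0.37 to 0.07). ITGB4 had -0.10, ITGA3 -0.09, ITGA6 -0.09, LAMA1 -0.11, ITGAV 0.03, LAMB3 0.04 and ITGB1 0.05. The interval for ITGB1, -0.21 to 0.32, leaves room for a difference either way, so ITGB1 cannot be said to be equal with both reagents. For the 34 genes the median difference was -0.09, against -0.03 over all probe sets, and 24 of 34 were below 0, or 70.6%, against 56.7% of all.

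**Figure D3:**
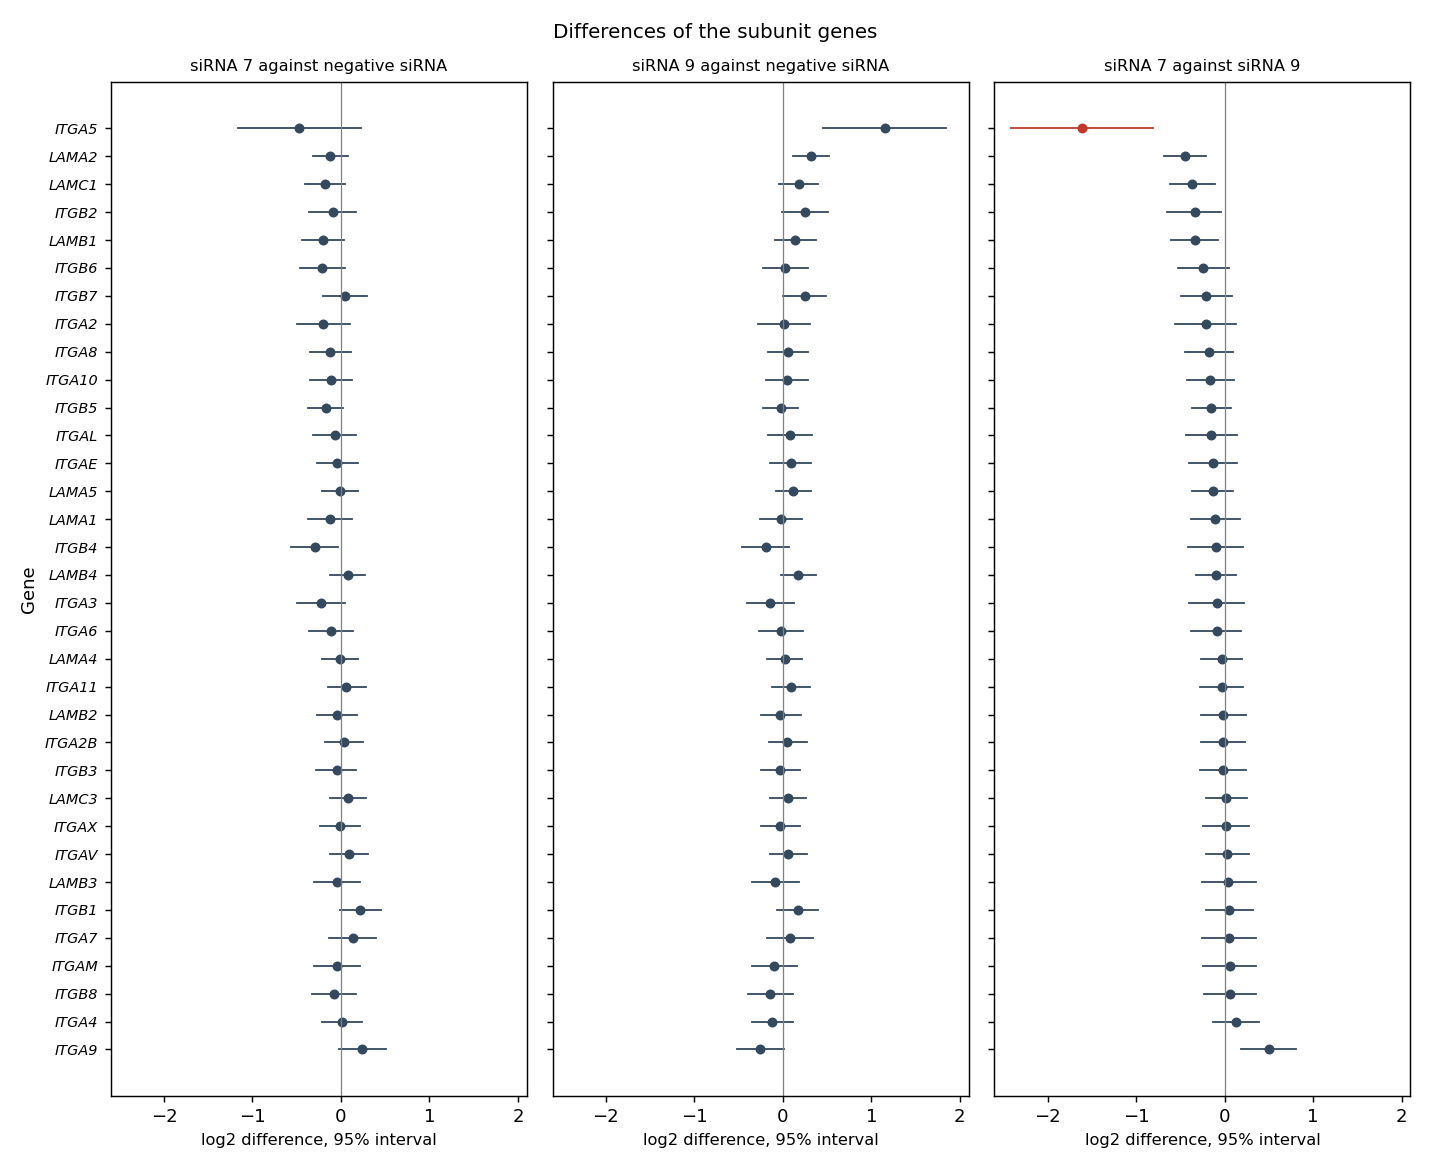
Log2 differences (points) with 95% intervals of the limma fit (lines) for the 34 subunit genes in siRNA 7 against negative siRNA, siRNA 9 against negative siRNA and siRNA 7 against siRNA 9; the genes run in the order of the third panel, and red marks an adjusted p under 0.05. ITGA5 in the third panel, at -1.61, is the 1 value in red, and the intervals of most genes cross 0 in every panel.

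Against negative siRNA, siRNA 7 by itself gave lower values for most of the epithelial subunits, none of them past the threshold. In limma 0 of 34 genes were called, against 0.0679% of all probe sets, and 1 of 34, ITGB4, had an unadjusted p under 0.05, against 7.46% of all. Values were below 0 for 24 of 34 genes, or 70.6%, against 50.7% of all probe sets, with a median of -0.05 over the 34 genes and 0.00 over all. Without siRNA 7 array 1 the median of the 34 genes was -0.12 and without siRNA 7 array 2 it was 0.01, so the shift rests on array 2. Among the 14 subunit genes whose mean put them in the upper 50% of probe sets, 12 were below 0, with a median of -0.18. In that upper part 46.2% of all probe sets were below 0. Without siRNA 7 array 2 the count was 9 of 14, with a median of -0.07.

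The genes of smallest unadjusted p with siRNA 7, after ITGB4, were ITGB1, ITGA9, ITGB5, LAMB1 and ITGA3. ITGB5 stood at 9.83 and 9.82 with siRNA 7, against 9.98, 9.99, 10.04 and 9.99 with negative siRNA, so that the groups did not overlap. Its difference was -0.17 (SE 0.09, adjusted p = 0.737). ITGA3, with both siRNA 7 arrays below all negative arrays, had -0.23 (adjusted p = 0.768), or -0.14 without negative array 2, and ITGA9, with both above, had 0.24. Only these 3 of 34 genes had no overlap, or 8.82%, against 14.4% of all probe sets. LAMB1 had -0.20 (SE 0.11), LAMC1 -0.18, ITGB6 -0.21, ITGA2 -0.20, ITGA6 -0.11, LAMA1 -0.12, LAMB3 -0.04, LAMA5 -0.01 and ITGAV 0.09, with adjusted p of 0.749 to 0.998.

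Against negative siRNA, siRNA 9 by itself gave its largest values for ITGA5 and LAMA2, and no subunit gene passed. In limma 0 of 34 were called, against 0.924% of all probe sets, and 3 of 34 had an unadjusted p under 0.05, or 8.82%, against 13.6% of all. These were ITGA5, LAMA2 and ITGB7. No negative array reached either siRNA 9 array for ITGA5, LAMA2, LAMB1, LAMB4 and LAMC1 (LAMC1 by less than the printed digits), 5 of 34 genes or 14.7%, against 13.4% of all probe sets. They lay below all negative arrays for 0 of 34, against 9.23% of all. Values were above 0 for 21 of 34 genes, or 61.8%, against 56.5% of all, with a median of 0.05 against 0.02. The median was 0.07 for the 4 laminin alpha chains, 0.06 for the 4 beta chains and 0.12 for the 2 gamma chains, and none of these passed.

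LAMB4 stood at 5.27 and 5.26 with siRNA 9, against 5.14, 5.12, 5.06 and 5.05 with negative siRNA. Its difference was 0.17 (SE 0.09, adjusted p = 0.435). LAMC1 had 0.18 (adjusted p = 0.484) and LAMB1 0.14 (adjusted p = 0.647). ITGB7 stood at 6.76 and 6.60, against 6.42, 6.25, 6.45 and 6.62 with negative siRNA, overlapping at negative array 4. Its difference was 0.25 (SE 0.11, adjusted p = 0.362), and ITGB2 had 0.25 (SE 0.12, adjusted p = 0.393).

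ITGB4 and ITGB1, described above, had -0.19 and 0.17 with siRNA 9, and none of the other epithelial subunits passed either. The interval for ITGA3, -0.41 to 0.13, leaves room for a difference, so closeness to the negative levels cannot be claimed. Differences were 0.12 for LAMA5, 0.06 for ITGAV, 0.03 for ITGB6, 0.01 for ITGA2, -0.02 for ITGA6, -0.02 for ITGB5, -0.02 for LAMA1, -0.09 for LAMB3 and -0.14 for ITGA3, with adjusted p of 0.647 to 0.981. Both reagents are compared with the same 4 negative arrays, so their values are not independent of each other.

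The remaining subunit genes were outside the epithelial subunits named above, and none was among the 6 of smallest unadjusted p in any comparison. Their values over the 8 arrays lay between 6.37 and 6.63 for ITGA11 and between 5.30 and 5.64 for ITGA10, which bind collagen, and between 5.88 and 6.32 for ITGA7, a laminin receptor chain of muscle. ITGA8, which binds nephronectin, lay between 4.59 and 4.95, and ITGA2B and ITGB3, which form the platelet fibrinogen receptor, between 6.48 and 6.67 and between 5.21 and 5.49. ITGA4, whose product binds VCAM1 and fibronectin, lay between 5.10 and 5.44. ITGB8, a partner of alpha V, lay between 5.57 and 5.97. Among laminin chains LAMA4 lay between 4.95 and 5.15, LAMB2 between 7.58 and 7.84 and LAMC3 between 7.28 and 7.46. None had a difference from negative siRNA beyond -0.14 to 0.14 with either reagent.

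The genes through which integrins act were looked up in 4 further lists. Talins, kindlins and other focal adhesion proteins link integrins to actin and signalling, and 39 of 42 were measured. None of these passed for both reagents together or for either reagent against negative siRNA, with medians of -0.01, -0.02 and -0.03. With siRNA 9, TNS4 had 0.47 (adjusted p = 0.0705) and TLN2 0.46 (adjusted p = 0.0861), while 18 genes were above and 21 below 0. With siRNA 7, PTK2 had -0.39 (adjusted p = 0.193), while 17 were above and 22 below 0. In siRNA 7 against siRNA 9, 4 of 39 passed, all lower with siRNA 7, and 0 were higher, with a median of 0.01. Over all probe sets 1.41% passed as lower and 0.82% as higher. The list was chosen with earlier results of these data known, so nothing is read from its share that passed.

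These 4 genes were PTK2, NEDD9, TNS1 and GIT2. PTK2, focal adhesion kinase, stood at 9.87 and 9.97 with siRNA 7 and at 10.56 and 10.57 with siRNA 9, against 10.26, 10.41, 10.32 and 10.24 with negative siRNA, a difference of siRNA 7 and siRNA 9 of -0.64 (SE 0.10, adjusted p = 0.0142). The siRNA 7 arrays lay below and the siRNA 9 arrays above all negative arrays. NEDD9, a docking protein that the kinase phosphorylates, stood at 8.49 and 8.20 with siRNA 7 and 9.13 and 9.05 with siRNA 9, against 8.35 to 8.81 with negative siRNA, and differed by -0.75 (SE 0.15, adjusted p = 0.0269).

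TNS1, the tensin that binds beta tails and actin, stood at 6.68 and 6.47 with siRNA 7 and 7.50 and 7.17 with siRNA 9, against 6.63 to 7.18 with negative siRNA, and differed by -0.76 (SE 0.17, adjusted p = 0.0454). GIT2, an Arf GTPase-activating protein of focal adhesions, stood at 9.26 and 9.26 with siRNA 7 and 9.71 and 9.69 with siRNA 9, against 9.37 to 9.54 with negative siRNA, and differed by -0.44 (SE 0.10, adjusted p = 0.0498). For each of the 4 genes negative array 2 was the highest negative array. With limma the calls ended without any 1 of the siRNA arrays for TNS1 and GIT2 (adjusted p = 0.0881 to 0.351). They ended for PTK2 as well (0.0669 to 0.182), and for NEDD9 with the exception of siRNA 7 array 1 (0.167 to 0.248 without the others). GIT2 also lost its call without negative array 1 (0.0711) or 3 (0.0977), and TNS1 without negative array 3 (0.0695) or 4 (0.0513). With all probe sets tested none of the 4 passed (0.0646 to 0.147), where 0.0248% of all passed. GIT2 also lost its call after median centring (0.0720). Fits without a siRNA array leave 1 array in that group, and fewer of all probe sets passed there.

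**Figure D4:**
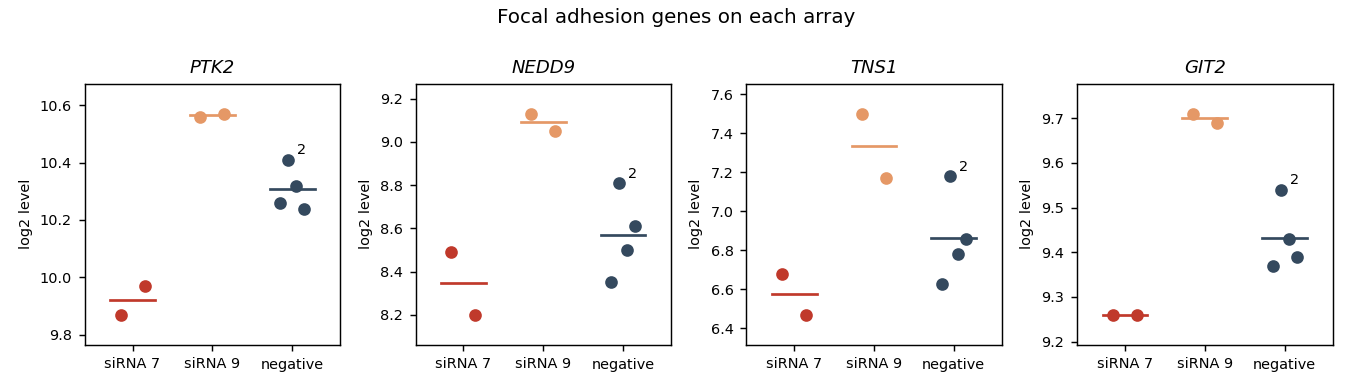
Log2 levels of PTK2, NEDD9, TNS1 and GIT2 on each array (points) with the group mean (line) for siRNA 7 (2 arrays), siRNA 9 (2 arrays) and negative siRNA (4 arrays, array 2 marked); each panel has its own axis. In every panel the siRNA 9 arrays lie above the siRNA 7 arrays, as for PTK2 at 10.56 and 10.57 against 9.87 and 9.97.

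The other lists had no member past the threshold in any of the 4 comparisons. Matrix ligands, with 38 of 38 measured, had medians of 0.03 for both reagents, 0.01 for siRNA 7, 0.04 for siRNA 9 and -0.04 between the reagents. FN1, fibronectin, the main ligand of the ITGA5 product, stood at 6.25 and 5.62 with siRNA 7 and 6.47 and 6.41 with siRNA 9, against 6.48, 6.61, 6.53 and 6.36 with negative siRNA. Its difference was -0.56 for siRNA 7 (SE 0.15, adjusted p = 0.271), most of it on siRNA 7 array 2. NPNT, nephronectin, had 0.29 for both reagents (adjusted p = 0.820) and 0.39 for siRNA 9 (adjusted p = 0.130), and NID1, nidogen, which bridges laminin to type IV collagen, had -0.26 for siRNA 9 (adjusted p = 0.181).

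Of 10 hemidesmosome genes and other laminin receptors 6 were measured. PLEC, plectin, which ties the beta 4 tail to keratin, stood at 9.17 and 9.02 with siRNA 9, against 9.39, 9.38, 9.40 and 9.35 with negative siRNA, without overlap and with a difference of -0.29 (SE 0.09, adjusted p = 0.160). DST, which has the same role, had 0.34 (adjusted p = 0.316). Of integrin-associated surface proteins 13 of 13 were measured. BSG, basigin, stood at 11.31 and 11.11 with siRNA 9, against 11.50 to 11.70 with negative siRNA, a difference of -0.41 (SE 0.10, adjusted p = 0.0811). PLAUR, the urokinase receptor, had 0.29 for both reagents (adjusted p = 0.903), with negative array 2, at 9.72, above every siRNA array.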

How the data were processed

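The authors deposited log2 expression levels for 32321 probe sets on 8 arrays. Per the labels' protocols, biotin-labelled sense cDNA was hybridised to whole-transcript arrays, and limma is named in the submitters' processing notes. The sources used here name no summarisation, background correction or genome build. Between arrays, ranked values lay within 0.18 of each other. Gene names came from the platform annotation, with 19128 gene IDs found in RefSeq (GRCh38.p14).

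The 19158 probe sets with exactly 1 symbol were fitted in limma 3.58.1 (R 4.3.3), with 2 group means for both reagents and 3 otherwise, 2-sided, with Benjamini-Hochberg adjustment over all 19158 and a threshold of 0.05. The fits were tested on simulated data. Each run shifted 200 of 19158 probe sets and drew independent normal noise. Of simulated differences of 0.5 they recovered 0% between the reagents, 30.5% for siRNA 7, 30.4% for siRNA 9 and 62.4% for both reagents. Of differences of 0.8 they recovered 69.2% between the reagents and 92.8% for both reagents. In the data 428 probe sets were called between the reagents, GIT2 among them at -0.44. The simulated shares therefore do not give the smallest difference that can be called in the data. The subunit genes and lists were chosen with earlier results of these data known. By rule, values are given for called members, the 6 of smallest unadjusted p per comparison and the epithelial subunits. From the other lists they are given for called genes and for some of the 2 of smallest p per list and comparison. Alternatives were other normalizations, probe set filters, priors, array weights, a replicate block, reagent as a random block and leaving out each array. The number of arrays limits precision. Figures used matplotlib 3.10.9.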

Additional observations from a re-analysis of the deposited data

Results flagged for a closer look

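ITGA5 differed between the reagents by -1.61 in siRNA 7 against siRNA 9, a test of the difference itself (limma adjusted p = 0.0462). Single arrays also stood apart within groups of 4, by a gap to the nearest array that was large for the group's range. Chance flags about 1 in 20 of such groups, and 68 were looked at. In the TRIM44 siRNA group siRNA 7 array 2 stood apart for ITGA6, at 10.45 against 10.66 to 10.70, and for LAMB4, at 5.09 against 5.25 to 5.27. Among negative arrays, array 2 stood apart for ITGA3, at 8.15 against 7.77 to 7.79, and array 3 for ITGB5, at 10.04 against 9.98 to 9.99.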

How the results depend on the processing

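No subunit gene was called for both reagents together or for siRNA 7 under any alternative run, with 0 to 5 of 34 at an unadjusted p under 0.05 in limma. For siRNA 9 the count was 3 with array weights (ITGA5, LAMA2 and ITGA9) and 0 to 2 with each array left out. In siRNA 7 against siRNA 9 it was 1 as reported, 2 after quantile normalization, 3 with array weights or only the arrays compared, and 0 after median centring, with all probe sets, with a trended and robust prior or with the replicate number as a block; with each array left out it was 0 to 3. There 0% to 7.34% of all probe sets were called. The median for siRNA 7 was -0.18 with the upper 50% of probe sets and -0.12 to 0.01 with each array left out, and for siRNA 9 it was 0.01 to 0.11. Same-numbered arrays had correlations of their deviations from group means of 0.02 to 0.31, and differently numbered ones of -0.31 to 0.16. With 2 arrays per reagent the deviations mirror each other, so these values cannot decide whether the numbers are pairs. The main fits did not take them as pairs. With the replicate block the adjusted p between the reagents was 0.0503 for ITGA5, 0.0526 for NEDD9, 0.0774 for TNS1, 0.0730 for GIT2 and 0.0257 for PTK2. Under the same block ITGA5 had 0.90 (0.331) and ITGA9 -0.19 (0.590) with siRNA 9, and TRIM44 -0.88 for both reagents (0.998).

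Small values changed sign. For both reagents these were LAMC1 (0.00 after median centring, 0.06 with array weights, -0.06 to 0.08 with each array left out), LAMA1 (0.00 with array weights) and LAMB1 (-0.10 to 0.04 with each array left out). For siRNA 7, LAMA5 had 0.01 after median centring, 0.04 with array weights and -0.05 to 0.01 with each array left out, where ITGA6 had -0.24 to 0.02 and LAMB3 -0.18 to 0.10. For siRNA 9, ITGA2 had 0.00 after median centring, -0.08 with array weights and -0.04 with the replicate block, ITGB6 -0.06 with the block, LAMA1 0.04 with array weights and ITGA6 0.01 after quantile normalization. With each array left out these 4 had -0.08 to 0.07, -0.02 to 0.10, -0.16 to 0.12 and -0.09 to 0.02, ITGB5 -0.11 to 0.06 and LAMB3 -0.21 to 0.04. Between the reagents, with each array left out, LAMB3 had -0.10 to 0.18, ITGA6 -0.22 to 0.03, ITGB4 -0.21 to 0.01, ITGA3 -0.20 to 0.02, ITGAV -0.02 to 0.08 and LAMA1 -0.24 to 0.03. The cause was not tested.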

Other observations

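Of the 12 epithelial markers measured, 6 were above and 6 below 0 with siRNA 9, with a median of 0.00 and 0 called. The 1 of smallest unadjusted p was CDH1, or E-cadherin, which is also the ligand of the integrin of ITGAE and ITGB7. It stood at 11.66 and 11.62 with siRNA 9, against 12.06, 12.06, 12.04 and 11.93 with negative siRNA. Both siRNA 9 arrays lay below every negative array, with a difference of -0.38 (SE 0.09, limma adjusted p = 0.0711). With siRNA 7 it stood at 11.97 and 11.90, overlapping the negative arrays. In siRNA 7 against siRNA 9, 7 of the 12 were above and 5 below 0, with a median of 0.03 and 0 called. Of all probe sets 56.7% were below 0 there. CDH1 had 0.29 in that comparison (limma adjusted p = 0.168). KRT20, a keratin of gut epithelium, had -0.33 (adjusted p = 0.269). Of the 15 fibroblast and endothelial markers 10 were above and 5 below 0 with siRNA 9 (median 0.03), and 8 were above and 7 below for both reagents (median 0.00), with 0 called. With siRNA 7, 5 were above and 10 below (median -0.05), against 50.7% of all probe sets below. Between the reagents 3 were above and 12 below (median -0.07), against 56.7% of all below, and 0 were called in either comparison. LUM, a matrix proteoglycan gene listed as a fibroblast marker, lay between 9.49 and 10.17 on the 8 arrays and had -0.37 with siRNA 9 (adjusted p = 0.229). TAGLN, a smooth muscle and fibroblast marker, had -0.28 for both reagents (adjusted p = 0.814), with all 4 TRIM44 siRNA arrays at 6.31 to 6.62 and the negative arrays at 6.65 to 6.90.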
